A study of Arabidopsis thaliana with 27 samples.

Results

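The transcripts described here stood higher in stamens of the jasmonate-deficient *opr3* mutant 22 h after jasmonic acid (JA) than in untreated stamens. They also stood higher than 22 h after the JA precursor 12-oxo-phytodienoic acid (OPDA). At 8 h after JA they stood less than 2-fold above untreated once 16 was added to each signal. They were chosen from the measured values. With signals taken as log2(signal + 16), a probe set was listed when its mean at JA 22 h was at least 1.5 above untreated *opr3* and at least 1.5 above OPDA 22 h, when its mean at JA 8 h was less than 1 above untreated, and when its mean signal at JA 22 h was at least 100. Of the 22810 probe sets on the array 143 met these limits, 8 of them were left out by name, and 135 were listed. Of the 135, 66 were paired with 1 gene, 66 with none in the platform table used here and 3 with several. A gene symbol other than a locus code was found for 11: GTR1, scpl38, UGT85A3, CML23, GSTU18, UPB1, SWEET9, GT2, COR47, NGA2 and FDH.

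RNA from *Arabidopsis thaliana* stamens was hybridised to Affymetrix ATH1 arrays, 1 sample each. The *opr3* plants, grown on soil in continuous light, were sampled untreated (0 h, 3 arrays) or after stage 12 flower buds had received 0.03% JA, given as methyl jasmonate, or 0.03% OPDA, with stamens taken at 0.5, 2, 8 and 22 h. Each treated group held 3 arrays, except JA 0.5 h and OPDA 8 h with 2 distinct arrays each, and 1 array came from untreated stamens of the wild-type background Ws. All groups but Ws carry the *opr3* mutation, no mock-treated arrays are labelled, and the labels do not say whether replicates were separate plants, so the spread behind each p-value may be technical.

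JA is made from OPDA, which the peroxisomal reductase OPR3 reduces before beta-oxidation shortens its side chain. In *Arabidopsis* flowers JA is needed for filament elongation, anther opening and pollen maturation, and *opr3* plants are male-sterile unless JA is supplied. JA acts through the COI1 receptor, which removes JAZ repressors from transcription factors, so early targets can in turn control later ones.

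Replicates 1 and 2 of JA 0.5 h were identical in 100% of their values (the next pair of arrays in 0.943%) and were counted once. Replicate 3 of JA 2 h is titled opr2 and was kept. The median signal of an array lay between 47.5 and 56.9, and precision is limited by how few arrays each group holds. The pollen list (20 probe sets) summed to between 5903.8 and 9558.9 on the *opr3* arrays up to 8 h, apart from replicate 2 of JA 8 h with 15620.8. At 22 h it summed to between 12822 and 21150.3 after JA and between 11599.6 and 18861.1 after OPDA, and to 13443.1 in Ws. None of the defining markers named on the array had a group mean of 0, which does not show that each was expressed. AMS, a tapetum marker, stayed under 50 in every group, with means from 15.9 to 40.6. The tapetum marker ATA27 had a mean of 454 untreated, 127 at JA 8 h and 5.03 at JA 22 h, 17.3 at OPDA 22 h, and 834 in Ws. OPR3 itself was not analysed here.

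The values that chose the list are given as a description, with no test. The median signal over the 135 probe sets was 40.4 in untreated stamens, between 37.4 and 41.8 at 0.5 and 2 h after either compound, 44.1 at JA 8 h, 39.4 at OPDA 8 h, 47.3 at OPDA 22 h, 431 at JA 22 h and 205 in Ws. The difference between JA 22 h and untreated ranged from 1.54 to 6.80 on the log2(signal + 16) scale with a median of 2.56, where the median over the 14028 tested probe sets was -0.21. Under quantile normalization that last median was -0.11, and under scaling to the 75th percentile it was -0.10. The difference between JA 22 h and OPDA 22 h ranged from 1.51 to 6.66 with a median of 2.32, and that between JA 8 h and untreated from -0.92 to 0.99 with a median of 0.22. A mean signal of at least 50 was reached by 56 probe sets in untreated stamens, 62 at JA 8 h, 66 at OPDA 22 h, 129 in Ws and all 135 at JA 22 h. The files used here hold no detection calls, so a signal under 50 is not shown to be a transcript, and a fold change from such a level is understated by the added 16. In 132 of the 135 all 3 JA 22 h arrays lay above all 22 other *opr3* arrays, as they did in 4.57% of tested probe sets, a count that the limits favour. The 3 with overlap were AT4G04980, AT1G29670 and 258399_at, named after their values were seen.

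**Figure D1:**
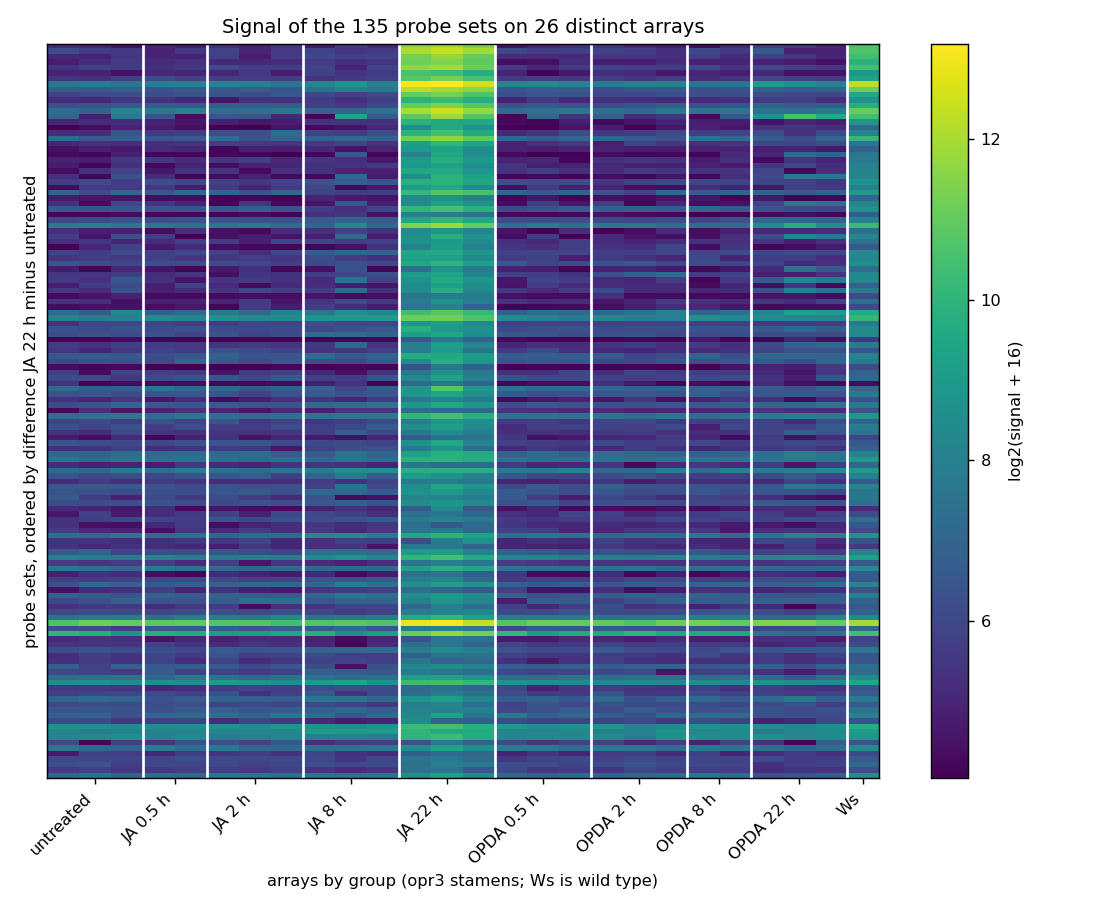
Each row is 1 of the 135 probe sets and each column 1 of 26 distinct arrays, with colour giving log2(signal + 16) and rows ordered by the difference between JA 22 h and untreated. The JA 22 h columns are the brightest block, the Ws column is intermediate, and the median signal of 431 at JA 22 h compares with 40.4 in untreated stamens.

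The 5 largest differences belonged to probe sets that the platform table pairs with no gene, and they are named for their size after their values were seen. Probe set 259282_at read 19.6, 15.5 and 6.7 untreated, 39.3, 35.6 and 14.1 at OPDA 22 h, 3212.6, 3998.6 and 2685.4 at JA 22 h and 1526.8 in Ws. On the 16 arrays of the earlier times it lay between 3.7 and 34.7, so its JA 22 h level appeared between 8 and 22 h. Probe set 256833_at stood at 40.4 ± 11.7 (SD, n = 3) untreated and 4449.4 ± 796 (n = 3) at JA 22 h, and 251944_at at 20.3 ± 6.45 and 2585.8 ± 629. Probe set 250239_at stood at 21.2 ± 10.4 and 2304.9 ± 402, and 267560_at at 33.1 ± 7.09 and 3150.0 ± 849. At OPDA 22 h the means of these last 4 were 35.8, 27.8, 10.9 and 40.03, within the range of their untreated arrays or near it.

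Among probe sets with 1 gene, AT4G24380 had the largest difference (5.16) and the highest signal of the list. Its arrays read 191.3, 234.9 and 181.8 untreated, 8485.3, 9281.8 and 5911.0 at JA 22 h, 480.4, 368.7 and 241.9 at OPDA 22 h and 4832.1 in Ws. All 3 JA 22 h arrays exceeded every other *opr3* array, the highest of which was 480.4. AT2G27830 read 59.4, 63.9 and 80.7 untreated, 39.7, 30.7 and 52.3 at JA 8 h and 2078.5, 2736.5 and 1695.1 at JA 22 h. Its JA 8 h arrays were all below its untreated arrays, while OPDA 22 h gave 111.6, 86.3 and 90.8. AT1G21010 stood at 21.5 ± 4.6 untreated, 31.2 ± 7.57 at JA 8 h, 1002.8 ± 139 at JA 22 h and 29.6 ± 7.63 at OPDA 22 h (n = 3 each). AT2G32190, AT2G24580, AT3G14280 and AT1G71710 had differences of 4.46, 4.29, 4.14 and 3.89 from untreated, and of 3.6, 4.12, 3.33 and 3.99 from OPDA 22 h. Other bright members with 1 gene were AT5G44680, AT4G33700, AT3G22530 and AT1G32460, with means of 2025.8, 1205.3, 1102.7 and 1057.8 at JA 22 h against 244, 359.5, 170 and 210 untreated. No role is given for these loci, for which the tables used here hold only the code.

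Among transporters with a symbol, GTR1 (AT3G47960), a transporter of glucosinolates that also carries gibberellin and jasmonate conjugates, read 41.5, 51.9 and 55.1 untreated, 2069.5, 2471.9 and 1522.0 at JA 22 h, 57.2, 49.4 and 47.4 at OPDA 22 h and 695.4 in Ws. At the 16 arrays between, it lay from 38.3 to 76.4, and its OPDA 22 h arrays overlapped the untreated ones. SWEET9 (AT2G39060), a sucrose exporter known from nectaries, read 25.8, 25 and 19.4 untreated and 55.1, 208.9 and 390.5 at JA 22 h, with 47.7, 44.6 and 18.7 at OPDA 22 h. Its JA 22 h arrays were widely spread, and the lowest, 55.1, was near the highest OPDA 22 h array.

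Among enzymes, UGT85A3 (AT1G22380), a UDP-glucosyltransferase, read 27.2, 36.4 and 33.0 untreated, 598.5, 572.1 and 318.1 at JA 22 h and 37.7, 35.8 and 20.6 at OPDA 22 h. GSTU18 (AT1G10360), a glutathione transferase of the tau class, read 56.4, 62.7 and 53.5 untreated, 137.7, 127.4 and 111.4 at JA 8 h, 566.4, 705.5 and 342.6 at JA 22 h and 53.5, 50.5 and 51.6 at OPDA 22 h. All its JA 8 h arrays were above the untreated ones, and with a JA 8 h difference of 0.94 it was the third nearest to that limit. FDH (AT5G14780), mitochondrial formate dehydrogenase, read 283.8, 240.3 and 265.3 untreated, 528.0, 481.8 and 535.4 at JA 8 h, again without overlap, and 1013.0, 757.2 and 790.2 at JA 22 h. Its OPDA 22 h arrays, at 227.7, 262.8 and 304.4, surrounded the untreated ones. The serine carboxypeptidase-like gene scpl38 (AT2G05850) is described with the OPDA values below.

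CML23 (AT1G66400), a calmodulin-like calcium-binding protein, read 23.4, 30.3 and 15.5 untreated, 396.7, 500.3 and 344.0 at JA 22 h and 27.8, 12.2 and 23.5 at OPDA 22 h. Among DNA-binding factors, UPB1 (AT2G47270), a bHLH protein that represses peroxidase genes in roots, had 1.7, 1.0 and 4.4 untreated and 77.5, 188.6 and 105.7 at JA 22 h. NGA2 (AT3G61970), a B3 factor of style development, had 37.3, 44.4 and 45.5 untreated and 144.6, 222.8 and 155.5 at JA 22 h. GT2 (AT1G76890), a trihelix factor, had 24.8, 30.7 and 31 untreated and 118.6, 235.1 and 147.6 at JA 22 h. For all 3 factors the JA 22 h arrays were above every other *opr3* array. COR47 (AT1G20440), a dehydrin induced by cold and drought, read 1588.1, 2149.6 and 2000.5 untreated, 7908.9, 8740.4 and 5291.5 at JA 22 h and 2715.9, 2668.7 and 1983.7 at OPDA 22 h.

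**Figure D2:**
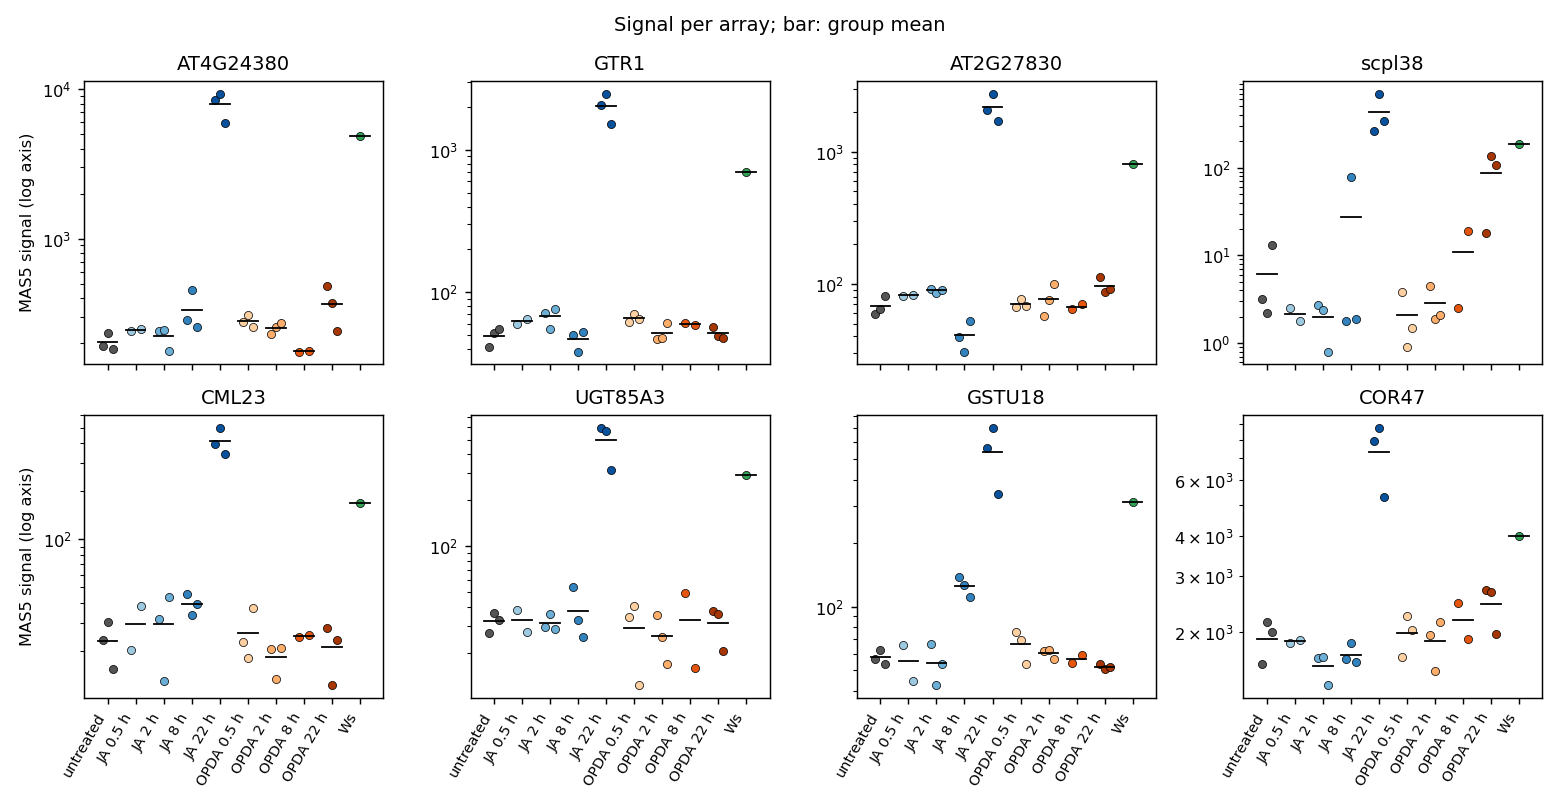
MAS5 signal per array on a logarithmic axis for 8 of the genes, by group, with each group mean as a bar. The JA 22 h points lie above all other *opr3* points in each panel; scpl38 also has OPDA 22 h points up to 134.6 and 1 JA 8 h point at 79.1.

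The 3 JA 22 h arrays were not alike. Replicate 2 was the highest in 112 of the 135 probe sets, replicate 1 in 20 and replicate 3 in 3, and the median signal of the list was 362, 572 and 338 on replicates 1, 2 and 3. These counts are not given for other probe sets, so the order of the replicates is not shown to be particular to the list. The median coefficient of variation at JA 22 h was 27.0% over the list and 14.9% over tested probe sets with a mean signal of at least 100. Replicate 2 also had the highest pollen sum of these 3, 21150.3 against 14526.3 and 12822.0, and the part of that in the spread was not tested. Without replicate 2, 108 probe sets met the limits, 107 of them shared, and the median difference from untreated over the 135 was 2.39. On the 2 days with scans of both groups, JA 22 h differed from untreated by a median of 3.03 and 2.33. Over all tested the medians were -0.24 and -0.12. On the 3 days shared with OPDA 22 h, the median difference between JA and OPDA was 2.35, 2.72 and 2.00. Over all tested it was -0.12, -0.07 and -0.05. All 135 were above 0 each time, which the limits favour, since these same arrays chose the list.

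Just inside the limit on the difference from untreated lay 247304_at, AT5G61340 and AT1G05170 with 1.54, 1.57 and 1.57, and just outside lay AT4G36860, AT1G23560 and AMY1 with 1.48, 1.48 and 1.39. At the limit against OPDA 22 h, 267516_at, AT3G17060 and 259681_at had 1.51, 1.52 and 1.52, and 246919_at, AT4G39610 and AT2G39210 had 1.498, 1.496 and 1.44. At the JA 8 h limit, 258919_at, 260693_at and GSTU18 had 0.99, 0.96 and 0.94, and AT3G43960, AT2G24550 and AT4G16640 had 1.005, 1.05 and 1.06. The lowest mean signals inside the list, for AT1G23120, 246669_at and AT1G29670, were 113, 116 and 118, and 252937_at, 267607_s_at and AT5G19870 outside had 93.6, 90.4 and 88.2.

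The first comparison that shares no array with the limits asked whether the listed transcripts already differed between JA and OPDA at 2 h. One of the 135 was called, lower after JA (limma, adjusted p under 0.05), where 1.9% of tested probe sets were called, 1.58% higher and 0.321% lower. It was 262911_s_at, a probe set paired with several genes, with 5.6, 26.5 and 26.2 after JA and 59.5, 101.9 and 141.6 after OPDA. The groups did not overlap, and the log2 difference was -1.73 with a 95% interval from -2.35 to -1.10 (limma adjusted p = 0.00146). After OPDA it read 34.8 and 43.9 at 8 h and 11.9, 12.1 and 27.1 at 22 h, whereas JA 22 h gave 521.1, 639.3 and 270.9. At OPDA 22 h its difference from untreated was -0.56. Whether JA lowered it or OPDA raised it at 2 h was not tested. With replicate number as a block, 2 were called, both lower, the second being 264788_at (log2 difference -1.28, limma adjusted p = 0.0263 with the block and 0.111 without), with 5.3, 2.9 and 2.0 after JA and 24.6, 24.0 and 48.2 after OPDA. AT5G03120 differed the other way by 0.96, with 63.3, 54.0 and 41.4 after JA and 19.6, 15.5 and 22.6 after OPDA, and missed the threshold (limma adjusted p = 0.0754). With scan day as a block it was called higher (limma adjusted p = 0.0486), as it was with pseudocount 1 (limma adjusted p = 0.0369). Before adjustment, 10 of the 135 (7.41%) had a p under 0.05, as had 1415 of all tested probe sets (10.1%).

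The probe sets with 1 gene that stood highest at JA 2 h against untreated included AT5G03120, AT1G29670 and AT3G05640, with means of 52.9 against 24.8, 61.2 against 31.5 and 62.3 against 35.6 and JA 22 h means of 298.5, 118 and 231. For AT1G29670 the groups overlapped, the lowest JA 22 h array being 63.0 and the highest JA 2 h array 77.6.

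At 0.5 h none of the 135 differed between JA and OPDA by limma at an adjusted p under 0.05, where 0.0713% of tested probe sets were called. An unadjusted p under 0.05 was reached by 2 (1.48%), beside 2.25% of all tested. Between 0.5 and 2 h after JA 0 were called against a background of 1.16% (1.02% higher and 0.143% lower), with a lowest limma adjusted p = 0.354. Here 4 (2.96%) had an unadjusted p under 0.05, beside 7.73% of all tested. Between 2 and 8 h after OPDA 0 were called, as in the whole table (0%). Of the 135, 3 (2.22%) had an unadjusted p under 0.05, beside 4% of all tested. The median log2 difference over the list in the 4 comparisons was 0.02, 0.02, -0.01 and 0.02, beside -0.05, -0.00, -0.04 and -0.02 over all tested. The 95% interval of a single probe set, not adjusted for the number tested, had a median half-width of 0.52 at 2 h. It was 0.58 in the comparisons with a group of 2 arrays. For a probe set with such an interval, smaller early differences could not be told from 0. Some intervals were narrower: AT5G44680 differed by 0.35 at 2 h, with an unadjusted 95% interval from 0.01 to 0.69. Larger differences could be missed after adjustment, as was 0.96 for AT5G03120 at 2 h. The change in the JA and OPDA difference between 0.5 and 2 h was tested as an interaction and called 0 of the 135 (limma, 3 at an unadjusted p under 0.05), against 27 in the whole table. All 135 passed the filter on low values, but only 87 would have passed on the *opr3* arrays other than JA 22 h, and the other 48 passed only with the JA 22 h arrays. Over the 87, limma called 1 between JA and OPDA at 2 h (262911_s_at, lower), beside 1.9% of all tested. At an unadjusted p under 0.05 there were 9 of the 87, beside 10.1% of all tested, and the median was 0.04. The 87 thus held 9 of the 10 found at 2 h among the 135. For the comparisons that follow, the shares of all tested are those given above. Between JA and OPDA at 0.5 h it called 0, with 0 at an unadjusted p under 0.05 and a median of 0.01. Between 0.5 and 2 h after JA it called 0, with 4 at an unadjusted p under 0.05 and a median of 0.02, and between 2 and 8 h after OPDA 0, with 3 and a median of 0.04.

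**Figure D3:**
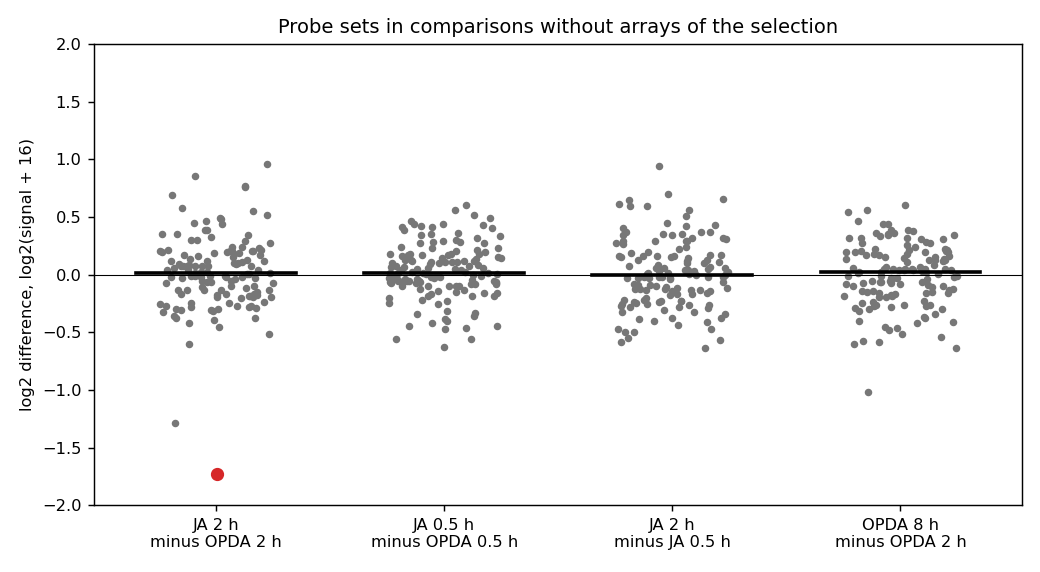
Each point is 1 of the 135 probe sets in 1 of 4 comparisons whose arrays were not used to choose the list, with the log2 difference on the vertical axis, the median as a bar and called probe sets in red. The medians lie between -0.01 and 0.02, and the 1 called point is 262911_s_at at -1.73.

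At JA 8 h the list stood, by its own limit, less than 2-fold above untreated. The median difference of the list was 0.22, where the median over all tested was -0.10, and 42 of 135 (31.1%) were below untreated against 63.5% of tested probe sets. Among the 507 other probe sets at least 1.5 above untreated with a JA 22 h mean of at least 100, it was 0.86, and 4.93% were below. The JA 8 h limit did not apply to them. The untreated arrays took part in the choice, which favours low untreated values and so a higher JA 8 h difference in the list. In 9 probe sets, or 6.67% of the list, the mean was at least 0.5 below untreated, as were 8.16% of tested probe sets. They included AT2G27830, AT3G62860 and AT4G12530 among those with 1 gene. AT3G62860 read 81.3, 33.5 and 15.2 untreated and 70.6, 3.8 and 6.4 at JA 8 h, so these groups overlapped. Probe set 261448_at, named after its values were seen, went from a mean of 93.5 untreated to 40.1 at JA 8 h and 1415.7 at JA 22 h.

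At OPDA 22 h, whose arrays took part in the choice, the list is again described with no test. Its median difference from untreated was 0.06, beside -0.09 over all tested. Of the 135, 11 (8.15%) were at least 2-fold above untreated on the log2(signal + 16) scale, where 3.41% of tested probe sets were, and 1 (0.741%) was at least 2-fold below, where 1.66% were. With pseudocount 1 these counts were 20 and 7. Leaving out the first untreated array, or the first one at OPDA 22 h, gave 3 below. Leaving out either of the other untreated arrays, or the second one at OPDA 22 h, gave 2 below. Of the 507 other probe sets with a JA 22 h mean of at least 100 and at least 1.5 above untreated, 66.9% were at least 2-fold above untreated at OPDA 22 h, a share that the limit against OPDA lowers in the list. The 1 below was 259149_at, which has no paired gene. It read 1042.8, 841.3 and 407.7 untreated, 179.0, 138.0 and 167.6 at OPDA 22 h and 2164.0, 3309.8 and 2469.2 at JA 22 h, so the 3 groups did not overlap.

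The 11 above untreated at OPDA 22 h were AT3G17060, AT2G47340, AT1G23350, AT4G04980, AT1G17540, AT1G66210, scpl38 and 4 probe sets with no paired gene. AT3G17060 read 112.3, 11.4 and 206.9 untreated, 1.9, 651.5 and 80.1 at JA 8 h, 385.4, 1451.8 and 778.6 at OPDA 22 h and 1841.0, 3600.2 and 1622.3 at JA 22 h. Replicate 2 was the highest array of each treated group named in that sentence. The carboxypeptidase-like gene scpl38 read 3.2, 2.2 and 13.0 untreated, 1.8, 79.1 and 1.9 at JA 8 h, 18.1, 134.6 and 107.3 at OPDA 22 h and 259.0, 694.7 and 343.8 at JA 22 h, again with replicate 2 highest in each treated group. Over the 11, the median signal was 57.8, 261.8 and 169.9 on the OPDA 22 h arrays and 12.0, 127.5 and 25.5 on the JA 8 h arrays. The pollen sums of the same arrays were 11599.6, 18861.1 and 11763.6, and 8823.7, 15620.8 and 8326.6. Over the 123 within 2-fold of untreated at OPDA 22 h the medians were 42.5, 40.3 and 42.1, and 47.1, 40.5 and 47.1. The OPDA 22 h and untreated arrays made the split into 11 and 123, so the higher OPDA 22 h medians of the 11 follow from it. In bulk stamens a larger share of a cell type and more RNA per cell cannot be told apart, and the part of pollen RNA in these values was not tested.

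**Figure D4:**
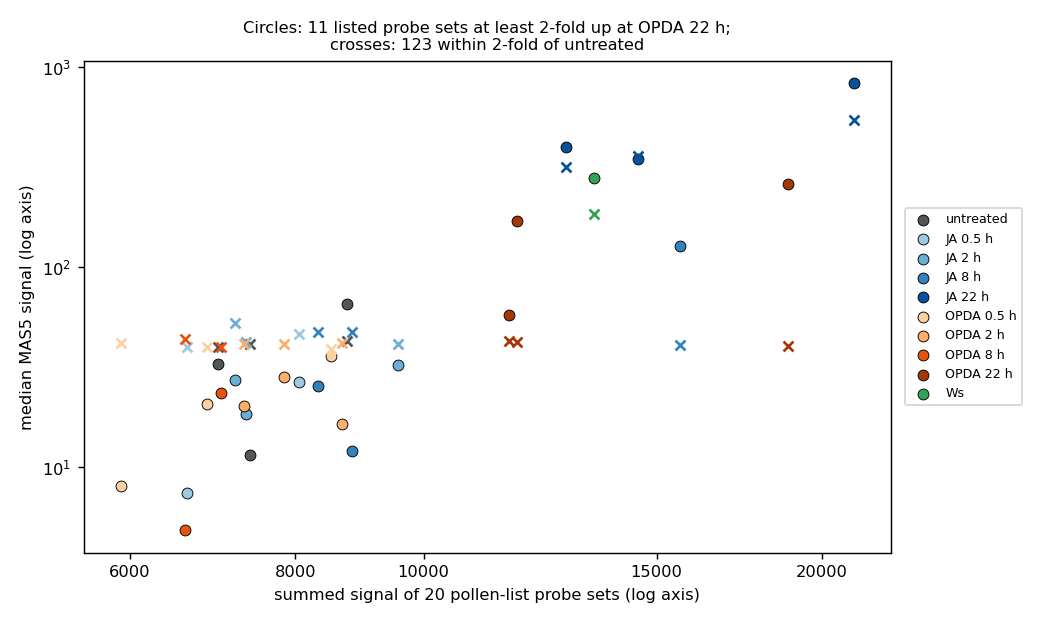
Each array appears as a circle (median signal of the 11 probe sets at least 2-fold above untreated at OPDA 22 h) and a cross (median of the 123 within 2-fold), against its summed pollen-list signal, both axes logarithmic. The JA 8 h array with a pollen sum of 15620.8 has a circle at 127.5 and a cross at 40.5. The OPDA 22 h array at 18861.1 has 261.8 and 40.3, and the OPDA 22 h arrays took part in the split into circles and crosses.

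The Ws array gives the level in untreated wild-type stamens, with no replicate and so no test. Ws lay above all untreated *opr3* arrays in 133 of the 135, and in 502 of the 507 other probe sets high at JA 22 h. It was at least 2-fold above their mean in 106 of the 135 (78.5%), beside 5.28% of tested probe sets and 92.5% of the other 507. It was nearer to JA 22 h than to untreated in 101 (74.8%) of the list and in 481 (94.9%) of the other 507. The Ws signal was a median of 45.5% of the JA 22 h mean over the list, from 2.30% to 84.3%, and 67.2% over the other 507. Ws lay below the lowest JA 22 h array in 129 of the 135, beside 380 of the other 507. It lay within the range of the 3 arrays in 6 of the 135, beside 123 of the other 507. Above their mean it lay in 0, beside 25. The untreated and JA 22 h arrays took part in the choice, which favours Ws values between them. The other 507 failed the limit on OPDA 22 h or JA 8 h, so they are not an equal baseline. How *opr3* stamens 22 h after treatment and Ws stamens compare in stage is not given in the labels.

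Among genes, AT5G11350 was nearest to its JA 22 h level in Ws (144.4 against 211.8, 163.0 and 145.2), followed by AT4G28780, AT1G12080, AT3G62860 and AT1G54120. The lowest relative to JA 22 h were AT2G24580 (102.4 in Ws, 463.9, 623.0 and 368.8 at JA 22 h), UPB1, AT5G03120, AT2G32190 and AT5G28520. GTR1 reached 34.4% of its JA 22 h mean, SWEET9 28.7%, CML23 40.5%, COR47 54.6%, UGT85A3 58.8% and FDH 60.6%. Probe set 256521_at, chosen here after its values were seen, read 3.2 in Ws and 26.0, 1.2 and 4.1 untreated, against 128.5, 177.9 and 111.6 at JA 22 h, and so had no Ws signal above the untreated arrays.

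**Figure D5:**
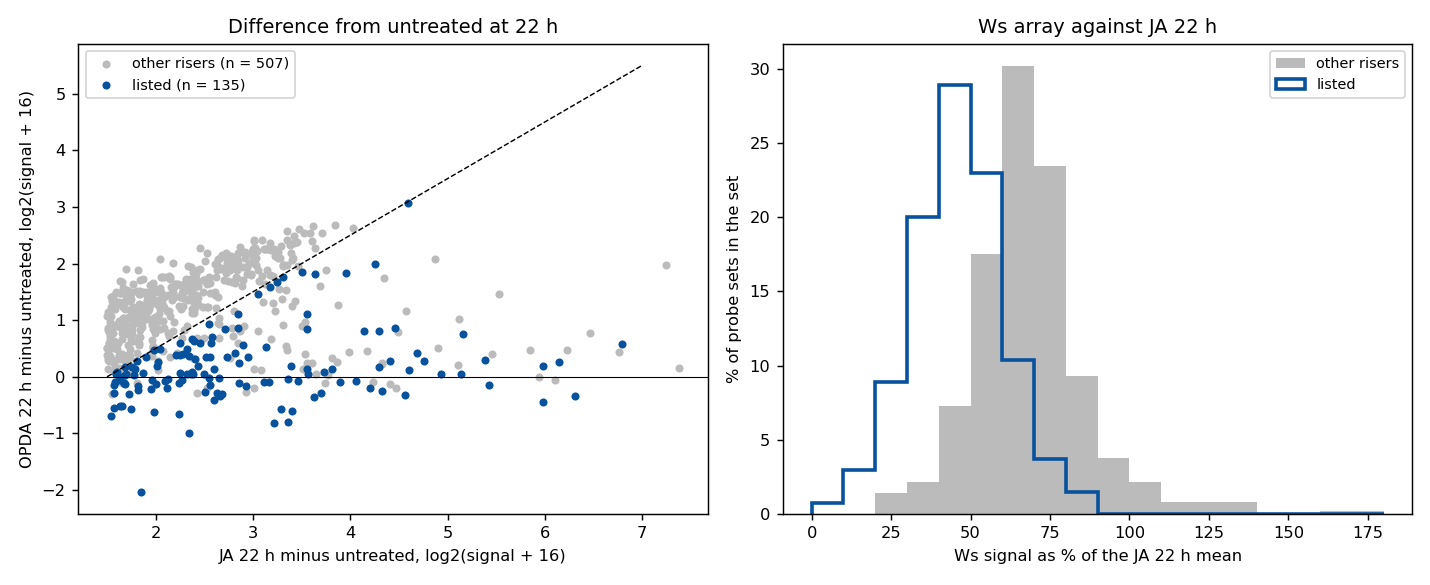
Left, the difference of each probe set from untreated at OPDA 22 h against that at JA 22 h for the 135 listed and the 507 other probe sets high at JA 22 h, with the dashed line at a JA minus OPDA difference of 1.5. Right, the Ws signal as a percentage of the JA 22 h mean in both sets, each as a share of its set; the medians are 45.5% and 67.2%.

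Lists of stamen and JA genes give the context at 22 h, matched by symbol, so that genes held only by locus code are not in them. For JA 22 h against untreated, limma called 39.6% of tested probe sets, 13.3% higher and 26.3% lower. In the pollen list 15 of 18 tested were higher and 1 was lower, among them ANX2, a receptor kinase of pollen tubes, by 2.79 (limma adjusted p = 3.45e-05). Against OPDA 22 h, where 18.7% of tested probe sets were called, 6.5% higher and 12.2% lower, 1 of these 18 was higher and 1 lower. They were NET2D, an actin-binding protein, by 0.64 (limma adjusted p = 0.0379), and AtVEX1, known from pollen, by -1.59 (limma adjusted p = 3.46e-06). With replicate number as a block 4 were higher, and without OPDA 22 h replicate 2 also 4, while the call of NET2D was lost without JA 22 h replicate 1 or 2 or OPDA 22 h replicate 1 or 3. The pollen list had a median difference of 1.35 from untreated and 0.29 from OPDA 22 h, beside -0.21 and -0.08 over all tested. Over the 135 these medians were 2.56 and 2.32. The 135 were chosen by limits on these same differences, so their medians cannot be compared with those of the pollen list.

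In the green tissue list 0 of 9 were higher at JA 22 h than untreated and 5 were lower, and 6 were lower than at OPDA 22 h. Among these, RCA, the activase of Rubisco, differed by -0.80 from untreated (limma adjusted p = 0.000665). The 1 tested dehiscence gene, ADPG1, whose polygalacturonase helps anthers to open, was higher by 3.21 than untreated (limma adjusted p = 5.39e-08) and by 1.91 than at OPDA 22 h (limma adjusted p = 8.3e-05). GH3.17, which conjugates auxin to amino acids, was higher by 0.91 than untreated (limma adjusted p = 0.00602), and its relative WES1 was lower, with a difference of -0.60 (limma adjusted p = 0.00993). They were 2 of 3 auxin genes matched and tested. Of 4 pectin and xyloglucan genes 2 were higher, and the 1 tapetum gene (ATA27) was lower. Only 4 genes of JA synthesis, catabolism and signalling were matched and tested, and 0 were called by limma. JMT and GH3.3 met the limits of the list, were left out by name and are in none of these lists, and jasmonate oxidase genes held only by locus code were not matched, so the counts for JA and auxin genes do not stand for those pathways.

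The 66 genes placed in the order of protein-coding genes held 1 close pair, AT5G66550 and AT5G66590, with 3 genes between them. AT5G66550 read 71.2, 57.1 and 49.9 untreated and 748.5, 990.6 and 576.4 at JA 22 h, with 44.5, 17.9 and 22.9 at OPDA 22 h, all below the untreated arrays. AT5G66590 read 53.4, 68.3 and 114.0 untreated, 465.6, 701.3 and 452.6 at JA 22 h and 116.7, 116.8 and 172.4 at OPDA 22 h, all above the untreated arrays, so that the 2 genes differed from untreated by -0.80 and 0.71 at OPDA 22 h. No 2 of the 11 genes with a symbol shared a symbol stem.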

How the data were processed

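The deposited intensity values are linear MAS5 signals, 1 per probe set, and the authors scaled each array globally to a target of 125, per the labels; background and detection settings are not given in the sources used here. The trimmed mean of each array (2% off either end) was 125.01. Signals were taken as log2(signal + 16). Probe sets that reached a signal of 50 on 2 or more *opr3* arrays (14028) were tested with limma 3.58.1 in R 4.3.3 (lmFit with a mean per group, eBayes with trend) over 25 arrays in 9 *opr3* groups, with 16 residual degrees of freedom, two-sided, and Benjamini-Hochberg adjustment over all tested probe sets within a comparison. The code was also tested on simulated data. The identical JA 0.5 h pair was counted once, and Ws stayed outside the fit. Same-numbered arrays of JA 2 h and OPDA 2 h deviated together (correlations of 0.26, 0.26 and 0.45 for 3 pairs), so the fit with replicate number as a block is given beside that result. The correlations were 0.09 and 0.44 for JA and OPDA at 0.5 h. They were 0.12 and 0.45 for JA at 2 and 0.5 h, and 0.29 and 0.33 for OPDA at 8 and 2 h. The main fit does not use this pairing.

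The listed transcripts and the gene lists were chosen with earlier results of these data known. SWEET13, SWEET14, GH3.3, JMT, MT1C, AT3G25810, GH9B11 and EXPB5 were left out by name. Genes came from the platform table and RefSeq names (TAIR10.1). Named were probe sets with 1 gene: the 15 largest differences from untreated, the 10 largest from OPDA 22 h, the 10 highest signals, those called, those with a symbol, the 5 highest and 5 lowest in Ws, the 3 nearest each limit on either side, and the 10 highest at JA 2 h; of these, those with values to show are in the text. Other probe sets are said to be named after their values were seen. Promoter and protein sequences were not analysed here. The alternatives tried were other pseudocounts (1 and 64), scalings (quantile, 75th percentile) and filters (none, or a mean signal of 100 or more), separate fits of each pair of groups, blocks for replicate number and scan day, and each array left out in turn.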

Additional observations from a re-analysis of the deposited data

How the results depend on the processing

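The arrays limit the precision, and dim signals limit the early comparisons. The number of probe sets meeting the limits was 135 with pseudocount 1 (118 shared), 95 with pseudocount 64, 129 after quantile normalization and 142 with arrays scaled to their 75th percentile, and lay between 108 (without JA 22 h replicate 2) and 174 (without OPDA 22 h replicate 2) with 1 array left out. The count nearer to JA 22 h in Ws stayed between 86 and 108. The 12 at least 2-fold from untreated at OPDA 22 h became 27 with pseudocount 1, which gives dim signals more weight. For JA 2 h against OPDA 2 h, limma called 2 with pseudocount 1 and 2 with scan day as a block, in both cases 262911_s_at and AT5G03120, and 2 with the replicate block, but 0 among the 66 with a mean signal of at least 100, where 262911_s_at was not tested. Its adjusted p lay between 0.000607 and 0.0185 where tested. The replicate block changed no other count of the 135. Pollen genes called higher at JA 22 h than at OPDA 22 h, an analysis added after seeing the data, numbered 3 with pseudocount 64, 0 after quantile normalization, 2 with arrays scaled to their 75th percentile, 4 with the replicate block and 0 to 4 with 1 array left out, and the cause was not tested. Against untreated they numbered 12 to 15. Of 2700 values of single probe sets 0 reversed and 350 moved by more than their replicate spread, 144 of them with pseudocount 1 and 204 with pseudocount 64. The search for promoter motifs was not run.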
